A study of Mus musculus with 4 samples.

Results

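The subject was 10 integrin subunit genes of the hair follicle mesenchyme, 7 alpha subunits (Itga1, Itga4, Itga5, Itga6, Itga8, Itga11 and Itgav) and 3 beta subunits (Itgb1, Itgb3 and Itgb5). They were taken by name from the 26 integrin subunit genes and 51826 genes of the count table. No threshold on a measured value was set, but the choice was made with earlier results of these data known. Messenger RNA was sequenced from cultured dermal papilla cells (DPCs), which sit inside the hair bulb, and from dermal sheath cells (DSCs), the mesenchyme that wraps the follicle from outside. Both were grown out of whisker follicles (vibrissae). The donors were C57BL/6J mice with an EGFP transgene, 5 to 6 weeks of age. Culture was in DMEM with fetal bovine serum. The labels give the genotype as WT, and the promoter of the transgene is not given in the sources used here. The cells were untreated and harvested at passage 3 (low passage) or passage 9 (high passage). Each of the 4 combinations of cell type and passage was 1 library, so no difference below has a replicate check, and passage cannot be told apart from anything else that differed between the libraries.

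Integrins are the main receptors by which cells hold extracellular matrix. Each is a pair of 1 alpha and 1 beta subunit that spans the membrane, binds matrix outside and connects through talin, kindlin and other linkers to actin inside. Itgb1 is the common partner of Itga1, Itga4, Itga5, Itga6, Itga8 and Itga11, and it also pairs with Itgav. Itgav further pairs with Itgb3 and with Itgb5. Itga1 and Itga11 receptors bind collagens. Itga5, Itga8 and Itgav receptors bind ligands with the RGD tripeptide, among them fibronectin (Fn1), nephronectin (Npnt) and osteopontin (Spp1). The Itga4 receptor binds VCAM-1 and a segment of fibronectin, and the Itga6 receptor binds laminins. In skin, integrins hold the mesenchyme of the follicle to its matrix, and the papilla in turn signals to the hair-forming epithelium.

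The study compared passages to ask which genes may bear on the homing of injected cells to follicles, and its design allows a comparison of passage within each cell type and of cell type within each passage. The libraries held 34981284 to 47604059 counts, and 0.474% to 0.623% of the counts of a library fell on the 10 genes. All 10 were among the 16734 genes with a mean count of at least 10 over the libraries. Differences within a gene are given as log2 ratios of library-scaled counts (CPM, scaled with TMM, prior count 2) with the 95% exact Clopper-Pearson interval of 1 library's share of the counts of both. Such an interval covers counting error only and compares 2 libraries, not 2 conditions. Levels of different genes were compared only on the deposited FPKM, which is scaled for transcript length. Differences were read against 4-fold, the threshold of the study, and 2-fold. Lists of 4 values run from DPCs to DSCs, with passage 3 before passage 9 in each. The epithelial markers Krt5, Krt14, Krt1 and Cdh1 had 0 counts in every library. The papilla and sheath markers Acta2, Cd44, Thy1, Ncam1 and Vcan had at least 1673 counts in each library, while Alpl had 6 to 23 and Lepr 0 to 18, so the last pair does not mark these cultures as papilla or sheath. Sox2 had 1677 and 1491 counts in DPCs and 269 and 178 in DSCs. Of 8 papilla and sheath markers tested, 5 were at least 2-fold lower at passage 9 in DPCs and 3 in DSCs, and their summed CPM was 8260, 2410, 7320 and 5910, with Lef1, at 508, 2, 101 and 55 counts, the one 2-fold lower in both. Of 5 fibroblast markers, 1 was 2-fold higher and 3 lower at passage 9 in DPCs, and 3 were higher and 0 lower in DSCs. Pdgfra was the one higher in both, with 11173, 29093, 4594 and 12132 counts, and Dcn had 4285, 5494, 3292 and 89544. The summed CPM of the 5, which Col1a1 and Col1a2 enter, was 14200, 4800, 22700 and 20400. The part of these differences in the integrin values was not tested. Skeletal muscle markers summed to 0.362 to 48.5 CPM with Myod1 and Myf5 at 0, and melanocyte markers to 11.2 to 28.3 CPM with Tyr, Dct and Mlana at 0.

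Apart from the minor Itga6 mRNA, the alpha subunits that differed most with passage were Itga8, Itga4, Itga5 and Itga11. The 250 bases before the RefSeq start of these genes are shown so that the genes that were higher at high passage in both cell types (Itga8 and Itga4) can be set beside those that were lower mainly in DPCs (Itga5 and Itga11). The sequences are RefSeq's on GRCm38.p6, read 5′ to 3′ on the strand of the gene, and capitals mark GGGCGG, the SP1 box, on either strand.
Itga8 (chr2:12301945-12302194, minus strand): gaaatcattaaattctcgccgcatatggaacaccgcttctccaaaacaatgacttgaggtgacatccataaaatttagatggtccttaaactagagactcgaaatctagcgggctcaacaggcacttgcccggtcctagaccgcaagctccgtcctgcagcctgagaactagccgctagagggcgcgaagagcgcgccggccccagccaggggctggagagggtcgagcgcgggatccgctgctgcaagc
Itga4 (chr2:79255176-79255425, plus strand): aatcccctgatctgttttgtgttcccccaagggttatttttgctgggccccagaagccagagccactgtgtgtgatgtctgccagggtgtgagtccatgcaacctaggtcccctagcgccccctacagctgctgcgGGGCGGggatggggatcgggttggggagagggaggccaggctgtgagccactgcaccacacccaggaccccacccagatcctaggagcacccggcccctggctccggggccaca
Itga5 (chr15:103366792-103367041, minus strand): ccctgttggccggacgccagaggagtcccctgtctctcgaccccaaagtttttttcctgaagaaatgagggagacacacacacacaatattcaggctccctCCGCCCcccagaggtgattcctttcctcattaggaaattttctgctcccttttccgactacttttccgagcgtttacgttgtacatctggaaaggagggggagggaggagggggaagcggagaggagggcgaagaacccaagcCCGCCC
Itga11 (chr9:62677605-62677854, plus strand): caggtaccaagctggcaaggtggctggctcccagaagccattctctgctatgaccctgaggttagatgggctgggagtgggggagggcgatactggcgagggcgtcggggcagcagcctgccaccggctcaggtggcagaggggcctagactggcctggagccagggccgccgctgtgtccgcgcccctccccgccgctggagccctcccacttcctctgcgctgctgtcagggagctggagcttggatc

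The Itga8 and Itga11 windows held no GGGCGG, the Itga4 window held 1 and the Itga5 window held 2. Of 32851 windows of the same length before RefSeq starts, 32.7% held at least 1. Of the 10 genes, 8 had a RefSeq window, and Itga6 and Itgb3 did not. Itgb1 had 1 box and Itgb5 had 3, and Itga1 and Itgav had none. Windows were also searched on both strands for TGANTCA (AP-1, in 6.75% of all windows), GGAATG (TEAD, 12.6%), CCGGAA (ETS, 12.0%), TATAAA (12.4%) and the CArG box (1.47%). Of these, only GGAATG occurred in the windows of the 8 genes, once, in Itgb1. The G and C content of the 8 windows lay between 55.6% and 68.4%, against a median of 52.4% over all windows. Of the genes higher at passage 9 in both cell types, the windows of Itga4, Itgb1 and Itgb5 held the box and that of Itga8 did not. Of those lower in both, the window of Itga5 held it and those of Itga1, Itga11 and Itgav did not.

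Itgb1 was the most abundant of the 10 mRNAs in every library, with 421 and 471 FPKM at passage 3 and 9 in DPCs and 403 and 540 in DSCs. It varied little, and its highest level was 1.34 times its lowest. Below it stood Itgb5 and Itga11 in 3 libraries, and in high-passage DPCs Itgb5 and Itga8. Itga6 was the lowest of the 10 in 3 libraries, and in low-passage DSCs Itga4 was lower, at 1.90 FPKM against 3.19.

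**Figure D1:**
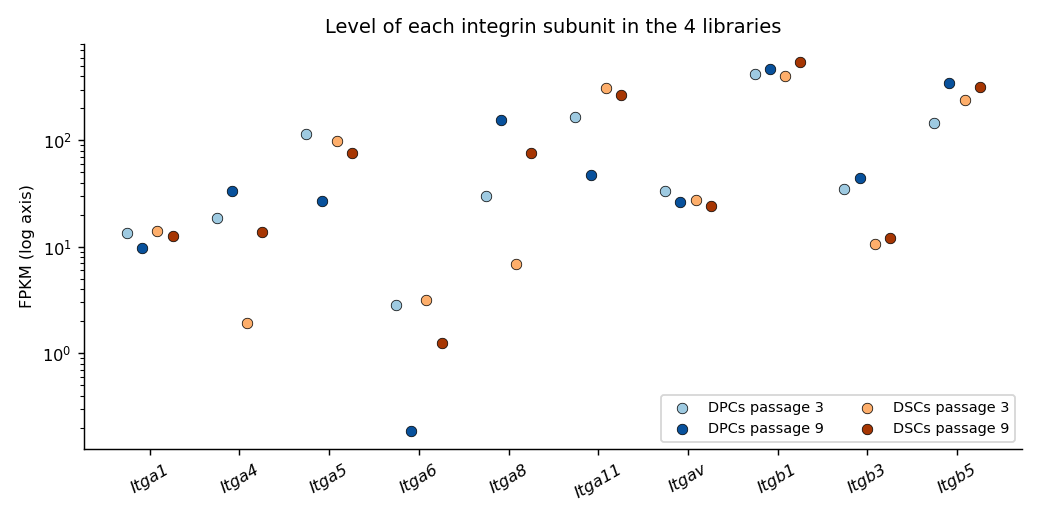
FPKM (vertical, log axis) of the 10 integrin subunits in the 4 libraries, 1 point per library. Itgb1, Itgav and Itga1 hold nearly the same level in every library, whereas Itga8 spans from 6.95 to 154 FPKM and Itga4 from 1.90 to 33.3.

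Between passage 3 and passage 9, Itga8, Itga4, Itgb5, Itgb3 and Itgb1 were higher in both cell types, and Itga6, Itga5, Itga11, Itga1 and Itgav were lower in both. Of all genes tested, 36.0% were higher in both and 34.4% were lower in both. In DPCs, 1 subunit was at least 4-fold higher (Itga8, against 5.58% of all genes) and 2 were at least 4-fold lower (Itga5 and Itga6, against 4.36%). At 2-fold, Itgb5 joined the higher side (2 subunits, 16.1% of all genes) and Itga11 the lower side (3 subunits, 15.0%). In DSCs, 2 subunits were at least 4-fold higher (Itga4 and Itga8, 2.67% of all genes), none was 4-fold lower (1.16%), no further subunit was 2-fold higher (8.55%) and Itga6 was 2-fold lower (6.21%). Itga8 was the only one of the 10 at least 4-fold higher in both cell types, as were 1.27% of all genes. The median log2 change of the 10 was -0.10 in DPCs and 0.05 in DSCs, beside 0.03 and 0.00 over all genes tested. The medians lay near those of all genes, while the single subunits ranged from -3.72 to 2.38 in DPCs and from -1.69 to 3.53 in DSCs.

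**Figure D2:**
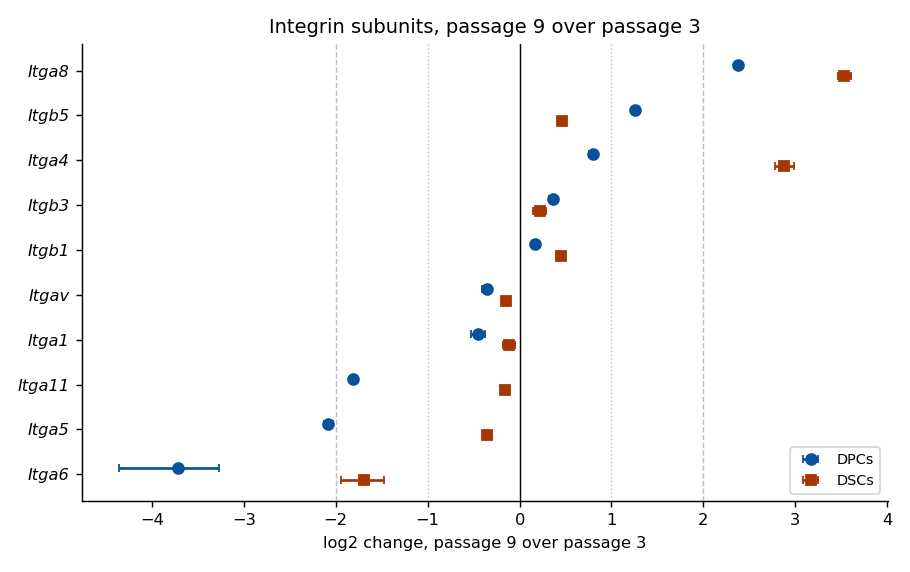
log2 change from passage 3 to passage 9 (horizontal) of each subunit in DPCs (circles) and DSCs (squares). Bars are 95% counting intervals, and dotted and dashed lines mark 2-fold and 4-fold. Itga8 lies past 4-fold in both cell types and Itga4 in DSCs, while Itga5, Itga6 and Itga11 lie farther to the left in DPCs than in DSCs.

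Among the subunits of RGD receptors, Itga8, which with Itgb1 forms the nephronectin receptor, differed most between passages. It lies on the minus strand of chromosome 2 (GRCm38, chr2:12106632-12301922). It went from 186 CPM at passage 3 to 967 CPM at passage 9 in DPCs, and from 44.1 to 511 CPM in DSCs. Both high-passage libraries were above both low-passage libraries. The log2 change was 2.38 (95% interval 2.34 to 2.42) in DPCs, 5.21-fold, and 3.53 (3.46 to 3.61) in DSCs, 11.6-fold. An antisense gene, E030013I19Rik, covers 5.05% of the exonic bases of Itga8 and had 123, 313, 24 and 344 counts. The use of strand in counting is not given in the sources used here, so reads from the overlap cannot be assigned, and their part in the Itga8 values was not tested.

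Itga5, the alpha subunit of the classical fibronectin receptor, was lower with passage (chr15:103344286-103366763). Its level was 549 CPM at passage 3 and 130 CPM at passage 9 in DPCs, and 501 and 393 CPM in DSCs. High-passage DPCs stood apart from the other 3 libraries. Its log2 change was -2.08 (-2.13 to -2.04) in DPCs, 4.23-fold lower, and -0.35 (-0.38 to -0.32) in DSCs. In FPKM, Itga8 was 0.261 times Itga5 at passage 3 and 5.67 times at passage 9 in DPCs. In DSCs the ratio was 0.0699 and 1.00, so both cell types carried more Itga8 relative to Itga5 after expansion.

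Itgav, which encodes the alpha subunit shared by vitronectin and latent TGF-β receptors, was nearly level (chr2:83724397-83806916). It was at 206 and 160 CPM in DPCs, the lower value at passage 9, and at 180 and 162 CPM in DSCs. This was a log2 change of -0.36 (-0.41 to -0.31) in DPCs and -0.15 (-0.20 to -0.10) in DSCs.

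Of the collagen receptors, Itga11, the alpha subunit of a fibrillar collagen receptor of fibroblasts, was lower in high-passage DPCs and nearly level in DSCs (chr9:62677826-62783982). It stood at 884 CPM at passage 3 and 252 CPM at passage 9 in DPCs, and at 1734 and 1553 CPM in DSCs. Both DSC libraries were above both DPC libraries. On the log2 scale the change was -1.81 (-1.85 to -1.78) in DPCs, 3.51-fold lower and short of the 4-fold threshold, and -0.16 (-0.17 to -0.14) in DSCs. Itga1, the alpha subunit of a receptor for basement membrane collagen, was at 87.6 and 63.9 CPM in DPCs and at 96.3 and 89.1 CPM in DSCs (chr13:114958079-115101964). Its log2 changes were -0.45 (-0.53 to -0.38) and -0.11 (-0.18 to -0.05), and the annotation places another gene, Gm49395, over 3.68% of its exonic bases on the same strand.

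Itga4, which with Itgb1 forms the VCAM-1 receptor known from leukocyte homing, was higher at high passage, mostly in DSCs (chr2:79255426-79333123). It was at 196 CPM at passage 3 and 342 CPM at passage 9 in DPCs, and at 20.99 and 155 CPM in DSCs. Low-passage DSCs were the library with little Itga4, and high-passage DSCs still lay below low-passage DPCs. This was a log2 change of 0.80 (0.76 to 0.84) in DPCs and 2.88 (2.78 to 2.99) in DSCs, 7.36-fold. Because Itga4 is also a leukocyte gene, leukocyte markers were read beside it. Ptprc (CD45) had 70, 22, 116 and 18 counts, and Cd3e had 0 in all. The summed CPM of the 6 markers was 110, 63.0, 160 and 90.2, lower at high passage in both cell types. Lyz2, the marker with the most counts, had 3396, 1963, 4971 and 3567. The part of leukocytes in the Itga4 values was not tested. The opposite-strand gene Cerkl overlaps 8.04% of the exonic bases of Itga4 and had 24, 75, 40 and 67 counts, and its part in the Itga4 values was not tested.

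Itga6, the alpha subunit of laminin receptors, was a minor mRNA and had the lowest ratio of passage 9 to passage 3 of the 10 in both cell types (chr2:71745616-71858416). In DPCs it had 455 counts (12.4 CPM) at passage 3 and 32 (0.892 CPM) at passage 9. In DSCs it had 551 counts (14.5 CPM) and 203 (4.45 CPM). Both high-passage libraries were below both low-passage libraries. The log2 change was -3.72 (-4.36 to -3.28) in DPCs, 13.2-fold lower, and -1.69 (-1.95 to -1.47) in DSCs, 3.24-fold lower. Itga6 was the only one of the 10 at least 2-fold lower in both cell types, as were 3.54% of all genes. Epithelial, endothelial and Schwann cells also use Itga6. The summed CPM of 5 Schwann markers was 8.21, 3.65, 16.2 and 5.09. At passage 3, Sox10 and Cdh19 had 28 and 33 counts in DPCs and 116 and 95 in DSCs, and at passage 9 both were at 0 in both cell types. The summed CPM of 5 endothelial markers was 2.55, 5.52, 7.88 and 1.21, which did not follow Itga6 in DPCs. Within that list Tek had 59, 0, 114 and 31 counts, Cdh5 16, 0, 45 and 0, Pecam1 12, 4, 23 and 9, Kdr 2, 0, 26 and 5, and Vwf, the one higher at passage 9 in DPCs, 5, 194, 91 and 10. The 6 keratinocyte markers summed to 1.03 to 1.66 CPM. The part of these cells in the Itga6 values was not tested, and in such bulk samples fewer cells of a type and less RNA per cell cannot be told apart.

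None of the 3 beta subunits was 4-fold different between passages in either cell type. Itgb5, which pairs only with Itgav, was at 479 CPM at passage 3 and 1142 CPM at passage 9 in DPCs, and at 835 and 1150 CPM in DSCs (chr16:33829665-33949153). The high-passage libraries reached nearly the same level from different starts. The log2 change was 1.25 (1.23 to 1.28) in DPCs, 2.38-fold, and 0.46 (0.44 to 0.48) in DSCs. Itgb3, which like Itgb5 and Itgb1 pairs with Itgav, was at 219 and 282 CPM in DPCs and at 70.3 and 81.9 CPM in DSCs (chr11:104608000-104670476). Its log2 changes were 0.37 (0.32 to 0.41) and 0.22 (0.15 to 0.29), and it differed more between cell types than between passages. Itgb3 is also abundant in platelets and their precursors, whose markers Gp9, Pf4 and Ppbp had 0 counts in every library. The fourth listed marker, Gp1ba, had 12, 42, 26 and 86 counts and was at least 2-fold higher at passage 9 in both cell types, the same direction as Itgb3. The 4 markers summed to 0.326, 1.17, 0.686 and 1.89 CPM, and their part in the Itgb3 values was not tested. Itgb1 was at 1734, 1946, 1759 and 2405 CPM (chr8:128685654-128733200). It was higher by a log2 of 0.17 (0.15 to 0.18) in DPCs and 0.45 (0.44 to 0.47) in DSCs.

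Taking each alpha subunit as a share of the summed FPKM of all 7 shows how their mixture differed. In low-passage DPCs, Itga11 held 43.6% and Itga5 30.5%, with Itga8 at 7.95%. In high-passage DPCs, Itga8 held 51.7%, Itga11 15.9% and Itga4 11.2%. Itga8 was thus the leading alpha mRNA of that library alone. In DSCs, Itga11 led at both passages, with 66.8% and 56.8%, and Itga8 went from 1.51% to 16.2%. The summed FPKM of the RGD-binding subunits (Itga5, Itga8 and Itgav) over that of the collagen-binding ones (Itga1 and Itga11) was 1.00 at passage 3 and 3.63 at passage 9 in DPCs, and 0.417 and 0.629 in DSCs. The RGD-binding sum itself differed less, at 179, 208, 134 and 177 FPKM, with Itga8 higher and Itga5 lower at passage 9 in both cell types. Itgb1 mRNA was 1.11 and 1.58 times the alpha sum in DPCs, and 0.875 and 1.14 times in DSCs. These are mRNA levels, and neither subunit pairs nor surface protein were measured.

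**Figure D3:**
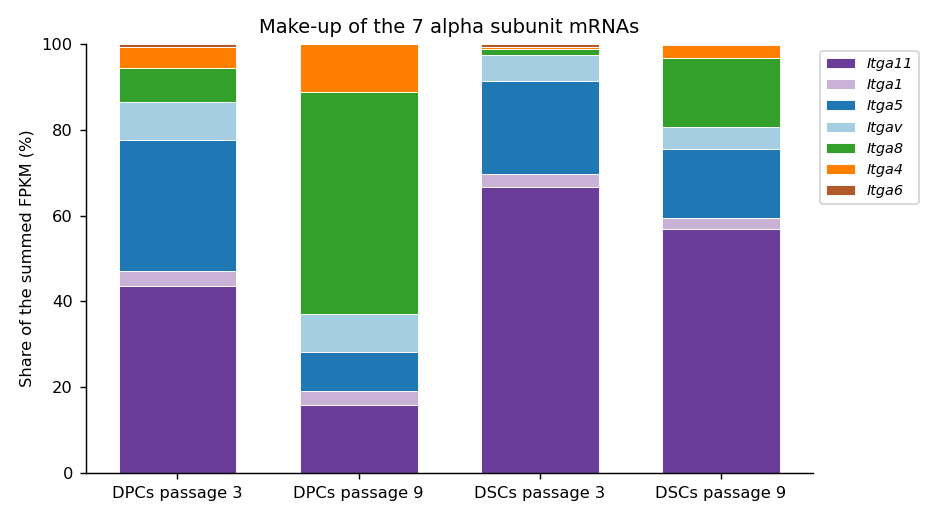
Share of the summed FPKM of the 7 alpha subunits (vertical, percent) held by each subunit in each library. Itga11 is the largest block in 3 libraries, and in high-passage DPCs Itga8 holds 51.7%.

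Itga4, Itga8 and Itgb3 were higher in DPCs than in DSCs at both passages, and Itga11 was lower at both. Itga5 and Itga6 were also at least 2-fold lower in DPCs at passage 9. At passage 3, 2 subunits were at least 4-fold higher in DPCs (Itga4 and Itga8, against 1.52% of all genes) and none was 4-fold lower (2.77%). Itga4 differed by a log2 of 3.22 (3.12 to 3.33), 9.33-fold, and Itga8 by 2.07 (1.996 to 2.15), 4.21-fold. Itgb3 followed at 1.64 (1.57 to 1.70), which made 3 subunits at least 2-fold higher in DPCs (5.43% of all genes), with none 2-fold lower (7.86%). Itga11 at -0.97 (-0.99 to -0.95) and Itgb5 at -0.80 (-0.83 to -0.77) were the lowest in DPCs relative to DSCs.

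At passage 9, Itga4 and Itgb3 were still at least 2-fold higher in DPCs, and 3 subunits that were within 2-fold at passage 3 were lower. None was 4-fold higher in DPCs (2.5% of all genes), and Itga6 and Itga11 were at least 4-fold lower (3.91%). Itga11 differed by a log2 of -2.62 (-2.66 to -2.59), 6.17-fold lower in DPCs, and Itga6 by -2.26 (-2.91 to -1.78). At 2-fold, Itga4 and Itgb3 were higher in DPCs (9.11% of all genes) and Itga5, Itga6 and Itga11 were lower (11.0%). Itga4 was down to 1.14 (1.10 to 1.18) and Itga8 to 0.92 (0.90 to 0.94), whereas Itgb3 kept 1.78 (1.73 to 1.84). Itga5, which differed by 0.13 (0.10 to 0.16) at passage 3, stood at -1.60 (-1.65 to -1.55). The intervals of Itgav, -0.02 (-0.07 to 0.03), and Itgb5, -0.01 (-0.03 to 0.01), included 0. Itga4 and Itgb3 were at least 2-fold higher in DPCs at both passages, as were 2.04% of all genes.

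**Figure D4:**
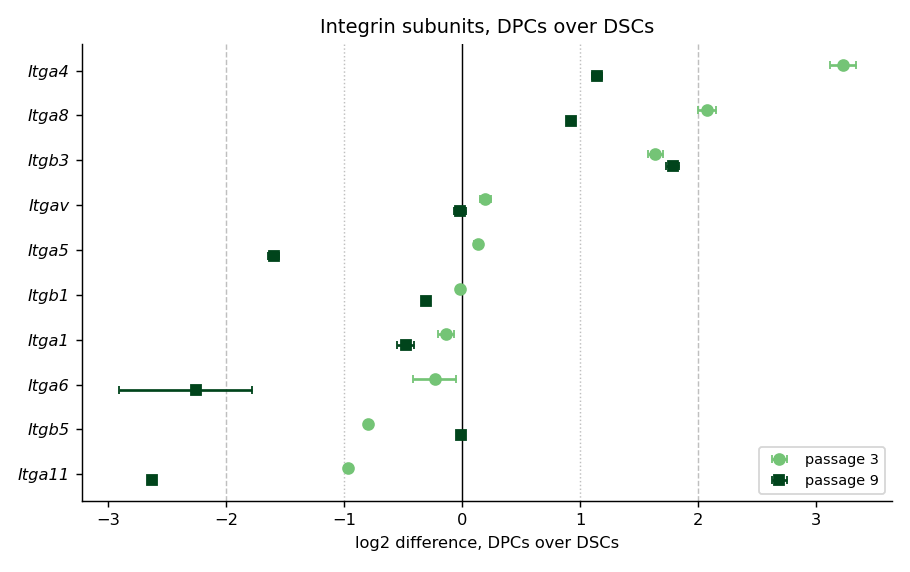
log2 difference of DPCs over DSCs (horizontal) for each subunit at passage 3 (circles) and passage 9 (squares), with 95% counting intervals and lines at 2-fold and 4-fold. Itgb3 lies near the same place at both passages, Itga4 and Itga8 lie closer to 0 at passage 9, and Itga5, Itga6 and Itga11 lie farther below 0 at passage 9.

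The response to passage differed between the cell types by more than counting error. The log2 change in DPCs minus that in DSCs was -2.08 (-2.19 to -1.97) for Itga4, -2.02 (-2.59 to -1.46) for Itga6, -1.73 (-1.79 to -1.68) for Itga5, -1.65 (-1.69 to -1.62) for Itga11, -1.15 (-1.23 to -1.07) for Itga8 and 0.79 (0.76 to 0.82) for Itgb5. For the other 4 subunits it lay between -0.34 and 0.15. No replicate shows how much of this another culture of the same cells would vary.

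A model with cell type and passage as additive terms, fitted over all genes and 4 libraries, has 1 residual degree of freedom, which is the difference between the cell types' responses and not the spread of cultures. edgeR's quasi-likelihood test called 0 genes for passage at an adjusted p under 0.05 (0.0% of genes), and 2822 genes (16.9%) had an unadjusted p under 0.05, among them Itga8, Itga6 and Itga4. Itga8 had an adjusted p of 0.188, Itga6 of 0.202 and Itga4 of 0.248 in edgeR with Benjamini-Hochberg adjustment. For cell type it also called 0 genes (0.0%), and 1381 (8.25%) had an unadjusted p under 0.05, among them Itgb3, Itga8, Itga4 and Itga11, with an adjusted p of 0.167 for Itgb3. The DESeq2 Wald test of the same terms called 955 genes for passage (5.71%), including Itga8, Itga6 and Itga4, and 496 for cell type (2.96%), including Itgb3, Itga4, Itga11 and Itga8. Whether a subunit was called thus depended on the tool.

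By the distance of centred log2 CPM profiles over the 4 libraries, the detected integrin most like Itga8 was Itga4 and the one most like Itga4 was Itga8, at a distance of 1.39 for the pair. Itga1 lay nearest to Itga9 (0.295), Itgav to Itga1 (0.403), Itgb1 to Itgb4 (0.251), Itgb5 to Itga3 (0.467) and Itgb3 to Itga7 (1.64). Itga5 (0.743), Itga6 (1.32) and Itga11 (0.646) all lay nearest to Itgb2. With 21 candidates and 4 libraries, these are descriptions only. Of the 10 genes, 4 lie on chromosome 2, with 4.39 Mb between Itga4 and Itgav.

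The 10 genes, chosen with earlier results of these data known, held most of the integrin mRNA of these cells. They summed to 981, 1157, 1112 and 1346 FPKM, and the 12 other subunits with a mean count of at least 10 summed to 25.8, 45.0, 36.1 and 45.6 FPKM. Of the other 8 alpha subunits with such a count, 2 were at least 2-fold higher and 3 lower in high-passage DPCs, and 2 were higher and 0 lower in high-passage DSCs, beside 16.1% and 15.0% of all genes in DPCs and 8.55% and 6.21% in DSCs. Itga7, which encodes a laminin-binding alpha subunit known from muscle, had 1397, 3704, 845 and 3189 counts and was the only one of them 2-fold higher in both, with log2 changes of 1.44 (1.35 to 1.53) and 1.65 (1.54 to 1.76). Itga3, another laminin-binding subunit, had log2 changes of 0.60 and 0.38, so that Itga7 and Itga3 were higher at passage 9 and Itga6 was lower. Itga2, a collagen-binding subunit, had 114 and 28 counts in DPCs and 1967 and 1422 in DSCs, so that like Itga11 it was lower in DPCs at both passages. Itga10, also collagen-binding, had 78 and 438 counts in DPCs and 311 and 614 in DSCs, with 33.5% of its exonic bases shared with Gm42957. Itga3 had 1494 to 3509 counts, Itga9 651 to 1440, Itgb8 106 to 247, Itgb4 73 to 122 and Itga2b 58 to 88. The leukocyte subunits Itgb2 had 30 to 241, Itgam 31 to 146, Itgax 0 to 51 and Itgb7 0 to 26. Gm49368, on the same strand, covers 68.7% of the exonic bases of Itgam and had 0, 0, 118 and 78 counts. Its part in the Itgam values was not tested.

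The matrix ligands were read beside their receptors from lists of related genes. Of all genes, 16.1% were at least 2-fold higher and 15.0% lower at passage 9 in DPCs, and 8.55% and 6.21% in DSCs, which is the background for each count of list genes. Of 7 collagen genes, 6 were at least 2-fold lower at passage 9 in DPCs and 0 in DSCs, with a median log2 change of -1.49 and -0.22. Itga11, at -1.81 and -0.16, lay within the range of these genes in both cell types, from -3.002 to -0.83 in DPCs and from -0.91 to 0.38 in DSCs. Of 14 genes tested in the list of RGD-type ligands, 2 were 2-fold higher and 6 lower in high-passage DPCs, and 2 were higher and 1 lower in DSCs. The list was not limited to ligands with an RGD tripeptide, and Vcam1, Ctgf and Postn were among the 6. Fn1, a ligand of Itga5, Itga8, Itgav and Itga4 receptors, had a log2 change of -1.98 (-1.99 to -1.97) in DPCs and -0.19 in DSCs. These values lay near the -2.08 and -0.35 of Itga5. Itgav was at -0.36 and -0.15, and Itga8 (2.38 and 3.53) and Itga4 (0.80 and 2.88) were opposite to Fn1. Spp1, a ligand of Itga8, Itga4 and Itgav receptors, was higher with 2.40 and 2.24, near the 2.38 of Itga8 in DPCs and below its 3.53 in DSCs. Npnt, a ligand known to bind the Itga8 receptor tightly, had 249, 307, 568 and 267 counts, so that in DSCs it was lower at high passage (-1.35) where Itga8 was higher. Vcam1, the cell-surface ligand of Itga4, had 2213, 326, 2024 and 1890 counts and was lower by a log2 of -2.72 in DPCs and -0.36 in DSCs, again opposite to its receptor. Vtn and Ibsp, further ligands of Itgav receptors, had 0 counts in all libraries. Fn1, Npnt and Vcam1 were named with their values known, as partners of the subunits.

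Of 8 laminin genes, 2 were 2-fold higher and 2 lower in high-passage DPCs, and 1 was higher and 1 lower in DSCs. Lama1, the laminin α1 chain, was the one lower in both, with 41, 0, 83 and 38 counts, the same direction as Itga6. Inside the cell, 1 of 14 actin linkers of focal adhesions was 2-fold lower in high-passage DPCs and none in DSCs, with median log2 changes of -0.55 and 0.02. Of 13 tail-binding activators and inhibitors tested, 0 were higher and 1 lower in DPCs and 1 was higher in DSCs. Of 12 adhesion signalling genes, 0 moved 2-fold in DPCs and 1 was higher in DSCs. Of 11 membrane partners tested, 3 were higher in DPCs and 1 in DSCs, and Sdc4, the heparan sulfate co-receptor of Itga5 at fibronectin, was higher in both with 1.33 and 1.01. Ltbp1, which holds latent TGF-β in the matrix for Itgav receptors to pull on, was higher with 1.07 and 1.14. Over the 79 genes tested in these 7 lists, 3 were at least 2-fold higher in both cell types (Spp1, Ltbp1 and Sdc4) and 1 lower (Lama1), beside 4.86% and 3.54% of all genes.

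**Figure D5:**
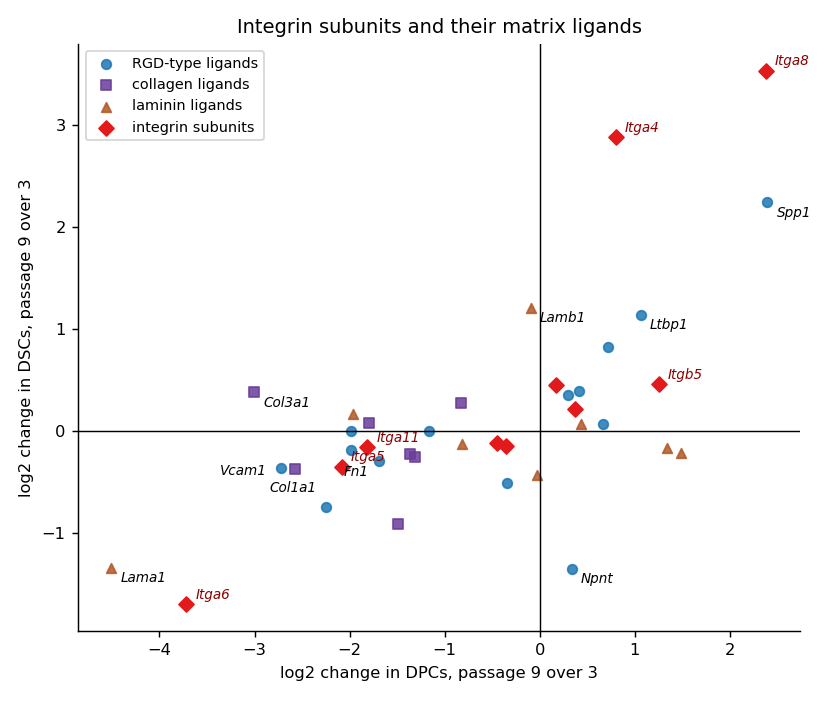
log2 change from passage 3 to passage 9 in DPCs (horizontal) and in DSCs (vertical) of the 10 integrin subunits (diamonds) and of ligand genes. The ligand genes are from the RGD-type list, which also holds Vcam1 (circles), and from the collagen (squares) and laminin (triangles) lists. Itga5 and Itga11 lie with Fn1 and most collagens at the left near the horizontal axis, Itga8 and Spp1 lie at the upper right, and Itga6 and Lama1 at the lower left.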

How the data were processed

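Messenger RNA of 4 cultures (DPCs and DSCs at passage 3 and 9, 1 library each) was sequenced. The study's methods give paired-end Illumina sequencing with an NEBNext kit, and the labels name TruSeq. The authors deposited raw counts per gene and, for each library, FPKM normalized for transcript length and depth. The submitters' notes list Bowtie 0.12.2 and builds mm8 and mm9 with no role, while 94.2% of the 51633 gene IDs found in GENCODE M21 have its GRCm38 positions, which are printed. The counter and the use of strand are not given in the sources used here. Even counts were in excess (1339 genes with 2 counts and 583 with 3 in low-passage DPCs), as when both mates of a pair are counted, so intervals may be too narrow.

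Genes with a mean count of at least 10 were scaled with TMM in edgeR 4.0.16 (R 4.3.3, limma 3.58.1) and log2 CPM used a prior count of 2. With 1 library per group, no test between single groups was made. An additive model of cell type and passage (edgeR quasi-likelihood, DESeq2 1.42.0 as alternative) was fitted to the 4 libraries. Intervals were computed with scipy 1.17.1. The named genes were the 10 subunits, other integrins with a mean count of at least 10, list genes past 2-fold alike in both cell types, and partners named in the text. Members, lists and markers were chosen with earlier results of these data known. Other scalings, prior counts, minimum counts, FPKM, halved counts and 1-term models were tried.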

Additional observations from a re-analysis of the deposited data

Results flagged for a closer look

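Differences with passage lay on opposite sides of 0 in DPCs and DSCs, with counting intervals that left out 0 in each, for 3 integrin subunits outside the 10, and each difference rests on 1 library per group and was not tested. For Itgb8 the log2 change was 1.24 in DPCs and -0.50 in DSCs, a difference of 1.75. For Itga9, whose product pairs with Itgb1, it was -0.63 in DPCs and 0.26 in DSCs, a difference of -0.89. Itgax, a leukocyte subunit, had 25 and 0 counts in low- and high-passage DPCs and 6 and 51 in DSCs, so that it was at least 8.13-fold lower in DPCs, taking 3 counts per library as the limit, and 5.59-fold higher in DSCs. With DPCs at that limit the difference was -5.50 or larger in size. None of the 10 subunits moved in opposite directions. Of all genes tested, 36.0% were higher in both cell types and 34.4% lower in both, without regard to counting intervals, and the rest were not alike in direction.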

How the results depend on the processing

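DESeq2 size factors, upper-quartile factors and prior counts of 0.5 and 10 left each of the 40 log2 values of the 10 subunits (4 comparisons) within its counting interval. Scaling by total counts or using the deposited FPKM moved 22 values each beyond it. Under both, Itgb1 at passage 3 and Itgav and Itgb5 at passage 9 changed sign in DPCs over DSCs, and upper-quartile factors did so for Itgb5 at passage 9, all values near 0. Under both, Itga8 at passage 9 also passed 2-fold in DPCs over DSCs (1.02 and 1.00), and no other 2-fold or 4-fold call of a subunit was gained or lost. The median difference of the subunits at passage 3 was 0.06, and 0.15 with total counts and 0.14 with FPKM, where the median of all genes was 0.09 and 0.08. With counts halved, the intervals of Itga6 and Itgb1 at passage 3 in DPCs over DSCs included 0. In the additive model, edgeR called 0 genes for passage and cell type, while DESeq2 called 955 and 496. For cell type, edgeR called 5 genes with DESeq2 size factors and 13 with a minimum mean count of 100, and the cause was not tested. No paired analysis was possible because each group holds 1 library and no replicate numbers are given, beyond the additive model itself, in which cell type acts as a block for passage. Depth limited Itga6, with 32 counts in high-passage DPCs.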
